A study of Mus musculus with 12 samples.

Results

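The genes described here are 46 mouse genes of DNA replication and deoxynucleotide synthesis, of 20959 genes with a probe in the series. They were chosen by name and function, and a probe was assigned to a member when the RefSeq gene table gave its transcript accession that member's symbol. All 46 had a probe on the arrays that compared RA with DMSO. On the arrays that compared VC with ddH2O 44 had one, and no probe there matched Rpa1 or Rrm2. Every member with a probe was well above background on all 6 arrays of its comparison, so the filter on dim probes removed none of them.

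Total RNA came from J1 mouse embryonic stem cells, a single pluripotent line, grown on gelatin in serum replacement medium. Every group was kept in leukaemia inhibitory factor (LIF) at 1000 U/mL, a cytokine that keeps mouse stem cells from differentiating. RA cells received retinoic acid, a vitamin A derivative that drives differentiation, at 1 µM, and DMSO cells received 1 µL of that solvent. VC cells received vitamin C, an antioxidant and enzyme cofactor, in an amount given as 50 µg with no volume, and ddH2O cells received 1 µL of water. All were treated for 24 h, and each of the 4 groups had 3 samples. The series title asks which genes the compounds regulate in these cells. Nothing in the labels says that the samples of a group were separate cultures. The p-values therefore weigh a difference between groups only against the spread among these samples, and that spread may be technical.

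RNA was measured on one-colour Agilent arrays, of one design for RA and DMSO and of another for VC and ddH2O. A level below is the log2 intensity of a gene's brightest probe minus the 75th percentile of that array, so 0 is the brightness below which 75% of the spots lie. Levels were compared between arrays for the same probe, never between genes or between designs. A gene was called when its limma p, adjusted over all genes tested, was under 0.05, and "rose" and "fell" are used of called genes alone. The number of arrays limits the precision.

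The 75th percentile of the raw processed signal was 287.7 to 388.1 intensity units on the RA arrays and 607.8 to 612.1 on the DMSO arrays, while it was 495.7 to 673.3 on the VC arrays and 563.1 to 698.8 on the ddH2O arrays. Across genes, correlations between an RA and a DMSO array were 0.898 to 0.903, against 0.992 to 0.995 within RA and 0.997 to 0.998 within DMSO. Between a VC and a ddH2O array they were 0.993 to 0.996, against 0.995 to 0.997 within VC and 0.996 to 0.997 within ddH2O. All RA arrays lay on 1 slide and all DMSO arrays on another, so slide and treatment cannot be told apart there. The VC and ddH2O arrays were spread over 3 slides, 1 of which held 2 arrays of each group. Scan dates put VC replicate 3 on day 2 and every other array of that comparison on day 1.

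Eukaryotic replication starts when the origin recognition complex, with Cdc6 and Cdt1, loads the ring-shaped MCM helicase on DNA, a step called licensing. In S phase the Cdc7-Dbf4 kinase and the factors Mcm10, Cdc45 and GINS switch the helicase on. Polymerase alpha-primase then lays down primers, which polymerases delta and epsilon extend on the PCNA clamp while RPA coats single strands. Embryonic stem cells are known for fast cycles with a short G1 phase and a large share of cells in S phase, and many of these genes are classic targets of E2F transcription factors.

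Because many members moved together in RA, their promoters are shown first. The table of RefSeq promoters (GRCm38.p6, from 250 bases before to 50 bases after each gene's start) held 38 of the 46 members among 27025 genes with 32851 windows. They were searched on both strands for the E2F-type motifs TTTCGCGC, TTTGGCGC and TTTCCCGC and for the CCAAT box, none of which contains another, although matches on opposite strands can overlap. At least 1 E2F-type motif stood in a window of 14 of the 38 members (36.8%) and of 573 of the 27025 genes (2.1%), or in 1.8% of all windows. CCAAT stood in 23 of the 38 (60.5%) and in 41.1% of all genes, or 37.4% of all windows. The Mcm10 and Orc1 windows are given because these genes were among the 3 members with the largest falls in RA. Mcm5 and Mcm6 were added after the matches were seen, as helicase subunits with several E2F-type matches. Capitals mark the motif matches, and overlapping matches run together.
Mcm10 (chr2:5012742-5013041, minus strand): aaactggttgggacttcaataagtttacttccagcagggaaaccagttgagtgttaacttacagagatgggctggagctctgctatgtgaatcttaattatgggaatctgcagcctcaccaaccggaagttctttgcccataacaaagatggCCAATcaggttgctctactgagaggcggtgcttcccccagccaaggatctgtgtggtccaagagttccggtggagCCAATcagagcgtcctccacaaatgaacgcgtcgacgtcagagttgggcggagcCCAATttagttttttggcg
Orc1 (chr4:108579204-108579503, plus strand): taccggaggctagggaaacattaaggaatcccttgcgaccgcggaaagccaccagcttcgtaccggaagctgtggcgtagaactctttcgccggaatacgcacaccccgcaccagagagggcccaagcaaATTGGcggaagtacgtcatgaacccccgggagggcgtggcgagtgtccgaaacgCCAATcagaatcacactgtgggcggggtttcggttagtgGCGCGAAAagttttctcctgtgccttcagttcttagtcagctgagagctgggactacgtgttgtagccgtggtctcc
Mcm5 (chr8:75109259-75109558, plus strand): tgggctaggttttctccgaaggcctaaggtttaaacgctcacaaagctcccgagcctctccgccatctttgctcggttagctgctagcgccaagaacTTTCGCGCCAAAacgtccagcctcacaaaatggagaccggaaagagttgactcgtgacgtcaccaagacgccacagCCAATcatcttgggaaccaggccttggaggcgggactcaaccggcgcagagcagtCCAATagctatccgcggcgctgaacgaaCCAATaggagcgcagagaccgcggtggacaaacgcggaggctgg
Mcm6 (chr1:128359656-128359955, minus strand): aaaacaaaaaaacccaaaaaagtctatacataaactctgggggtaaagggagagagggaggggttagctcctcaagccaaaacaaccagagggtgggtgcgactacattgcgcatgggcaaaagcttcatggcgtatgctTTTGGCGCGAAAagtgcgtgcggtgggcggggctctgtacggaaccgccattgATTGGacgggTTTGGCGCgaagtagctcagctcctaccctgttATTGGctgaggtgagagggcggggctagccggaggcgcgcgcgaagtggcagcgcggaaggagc

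The Mcm10 window held 3 CCAAT matches and none of the E2F-type motifs in full. It ended in tttggcg, which is TTTGGCGC without its last base, and the next base lay outside the window. In Orc1 a reversed TTTCGCGC lay downstream of 2 CCAAT matches, closest to the start. Mcm5 carried TTTCGCGC and, on the other strand, TTTGGCGC over some of the same bases, ahead of 3 CCAAT matches. In Mcm6 there were 3 E2F-type matches, of which 2 overlapped, and 2 reversed CCAAT matches. Orc2, the other of the 3 largest falls, had 2 windows with 1 CCAAT match each and no E2F-type match. A match is a description of the letters alone.

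In RA against DMSO most of the replication genes fell. Of the 46 members, 39 fell (84.8%), 1 rose and 6 were not called. Of all genes tested 78% were called, 42.1% lower and 35.8% higher, so a call was common on these arrays. The median member difference was -0.77 on the log2 scale, or 1.70-fold lower, against a median of -0.075 over all genes. All members lay between -1.59 and 0.32. The 3 RA arrays all lay below the 3 DMSO arrays for 40 members (87%), against 44.4% of all genes. A fall of at least 2-fold was called for 11 members (23.9%), against 15% of all genes. In bulk samples, fewer cells in S phase and less RNA per cell cannot be told apart.

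**Figure D1:**
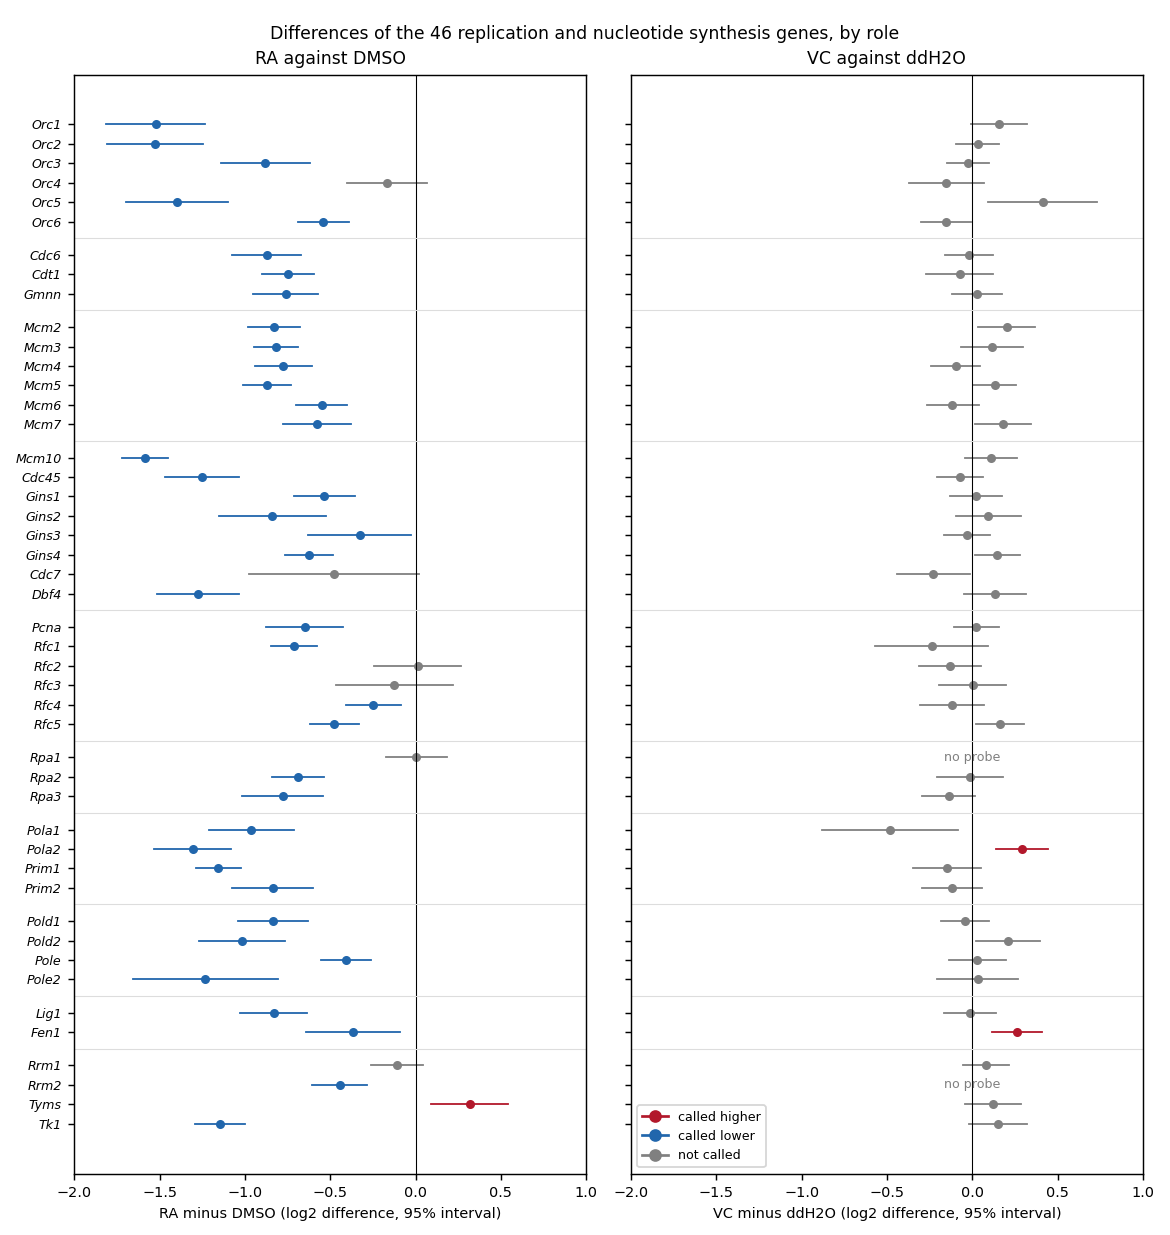
Log2 differences with 95% intervals for the 46 members, grouped by role from origin recognition (top) to deoxynucleotide synthesis (bottom), in RA against DMSO (left) and VC against ddH2O (right). In RA 39 of 46 members are called lower, while in VC the points scatter around 0 and 2 of 44 are called higher.

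Markers of other cell states moved in the same samples. Of 9 embryonic stem cell markers 8 fell and 1, Nanog, rose in RA, and their summed linear level was 83.6 to 94.2 times the array's 75th percentile in RA, against 553.9 to 571.7 times in DMSO. Dppa5a was the brightest of them (6.26 in RA, 8.39 in DMSO), so these sums are mostly Dppa5a, which fell by 4.38-fold. Of 12 fibroblast markers 9 could be tested, of which 8 rose and 1, Thy1, fell, and their sum was 69.7 to 79.3 times in RA, against 2.68 to 2.85 times in DMSO. The fibroblast markers Lum, Postn and Fap were near background throughout, with no array well above it. Of 8 blood and endothelial markers 2 rose and 3 fell, with sums of 10.3 to 15.9 times in RA, against 10.2 to 11 times in DMSO, and Cdh5 stayed near background on all 6 arrays. Kdr alone of these averaged above 0 (3.50 in RA, 3.23 in DMSO), so the sums are mostly Kdr. Its probe here was not called (0.26), but its other probe differed by 3.71. The part of these shifts in the member differences was not tested.

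The origin recognition complex, the 6-subunit machine that marks where replication can start, held some of the largest falls. Orc2 read 0.24, 0.32 and -0.084 on the RA arrays, against 1.76, 1.63 and 1.67 on the DMSO arrays (log2 difference -1.53, SE 0.12, adjusted p = 4.27e-05, 2.89-fold lower). The RA arrays lay far below the DMSO arrays, and RA replicate 3 was the lowest. Orc1, the subunit that binds Cdc6, averaged -0.43 ± 0.22 in RA and 1.09 ± 0.073 in DMSO (SD, n = 3 each), a fall of 2.87-fold. Orc5 fell by 2.63-fold. Orc3 differed by -0.88 and Orc6 by -0.54, and both were called. Orc4 was not called (log2 difference -0.17, SE 0.096, adjusted p = 0.152), and its arrays overlapped between the groups. As read by these probes, the subunits of this complex spanned differences from -1.53 to -0.17. Orc4, at the small end, averaged only -1.03 in RA and -0.86 in DMSO, and its second probe differed by -0.20, not called. The probe that stood for Orc4 on the VC design was not on this design. In the fit over all detected probes 71.6% were called, and of the 6 second probes of members 1 was. A dimmer second probe of Orc3 had a difference of -0.002 and was not called, so the fall of Orc3 rests on its brighter probe.

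All 3 licensing genes fell. Cdt1, the factor that brings MCM to origins, read 5.29, 5.41 and 5.27 on the RA arrays, against 6.08, 6.08 and 6.05 on the DMSO arrays (log2 difference -0.75, SE 0.063, adjusted p = 7.03e-05). Gmnn encodes geminin, which binds Cdt1 and blocks a second round of licensing, and it read 2.50, 2.57 and 2.33 on the RA arrays, against 3.19, 3.23 and 3.25 on the DMSO arrays (log2 difference -0.76, SE 0.078, adjusted p = 0.000169). The activator and its inhibitor thus differed by almost the same amount, with all RA arrays below all DMSO arrays. Cdc6, the loading ATPase, read 0.95, 1.15 and 0.88 on the RA arrays, against 1.86, 1.87 and 1.87 on the DMSO arrays (log2 difference -0.87, SE 0.083, adjusted p = 0.000118). Its DMSO arrays lay within a few hundredths of each other. The second Cdc6 probe differed by 0.071 and was not called, so the 2 probes of Cdc6 disagree.

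The 6 subunits of the MCM helicase, which unwinds DNA at the fork, all fell, and by similar amounts, from -0.87 for Mcm5 to -0.55 for Mcm6. Mcm5 read 4.76, 4.72 and 4.78 on the RA arrays, against 5.66, 5.58 and 5.64 on the DMSO arrays (log2 difference -0.87, SE 0.057, adjusted p = 2.26e-05, 1.83-fold lower). Mcm2 read 3.70, 3.86 and 3.76 on the RA arrays, against 4.60, 4.61 and 4.59 on the DMSO arrays (log2 difference -0.83, SE 0.063, adjusted p = 4.47e-05). In both the gap between the groups was many times the spread within either. Mcm3 differed by -0.82, Mcm4 by -0.78 and Mcm7 by -0.58. The 95% intervals were -1.01 to -0.73 for Mcm5 and -0.70 to -0.40 for Mcm6, and the difference between subunits was not tested.

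Of the 8 genes that switch the helicase on 7 fell. Mcm10, which helps the loaded helicase to fire, showed the largest fall of all members. It read 3.29, 3.32 and 3.25 on the RA arrays, against 4.87, 4.84 and 4.90 on the DMSO arrays (log2 difference -1.59, SE 0.055, adjusted p = 1.61e-06). The replicates of either group lay close together beside the gap between the groups. Cdc45, which joins MCM and GINS in the active helicase, fell by 2.38-fold. Dbf4, the regulatory subunit of the Cdc7 kinase, fell by 2.42-fold, while its partner Cdc7 missed the threshold (log2 difference -0.48, SE 0.21, adjusted p = 0.0717) on a dim probe whose RA arrays were spread widely. The GINS subunits, which complete the active helicase, differed by -0.84 for Gins2, -0.63 for Gins4, -0.54 for Gins1 and -0.33 for Gins3. All 4 were called, Gins3 at an adjusted p of 0.0485, and that call was lost when RA replicate 1 or 2 or any DMSO replicate was left out and in the fit over probes (adjusted p = 0.062). Gins3 turned to 0.037 with quantile normalization and to 0.024 in the authors' values, not called in either.

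The sliding clamp and its loader moved less evenly. Pcna, the clamp that tethers polymerases, read 5.92, 6.01 and 5.69 on the RA arrays, against 6.54, 6.52 and 6.51 on the DMSO arrays (log2 difference -0.65, SE 0.093, adjusted p = 0.000814). Rfc1, the large loader subunit, read 4.07, 4.11 and 4.14 on the RA arrays, against 4.84, 4.78 and 4.83 on the DMSO arrays (log2 difference -0.71, SE 0.056, adjusted p = 4.90e-05). Both were lower on every RA array. Rfc5 differed by -0.48 and Rfc4 by -0.25, and both were called, with a second Rfc4 probe at -0.26 also called lower, but the Rfc4 call was lost without DMSO replicate 1 or 2, and Rfc4 turned to 0.11 with quantile normalization and to 0.096 in the authors' values, not called in either. Rfc2 (0.011, interval -0.25 to 0.27) and Rfc3 (-0.13, interval -0.47 to 0.22) were not called and their arrays overlapped. Rfc2 was called lower (-0.33) with scaling by the array median and higher with quantile normalization (0.29) and in the authors' values (0.29). The loader is a complex of Rfc1 with the 4 small subunits, of which Rfc1, Rfc4 and Rfc5 were called here.

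RPA, the trimer that covers single-stranded DNA, had 2 subunits that fell and 1 that was not called. Rpa3, the smallest subunit, read 4.33, 4.49 and 4.17 on the RA arrays, against 5.10, 5.18 and 5.04 on the DMSO arrays (log2 difference -0.78, SE 0.097, adjusted p = 0.000427). Rpa2 differed by -0.69 and also fell. Rpa1, the large DNA-binding subunit, differed by 0.004 (adjusted p = 0.965) with an interval of -0.18 to 0.18, and its RA and DMSO arrays overlapped. The value of Rpa1 depended on the scaling: it was called lower by the array median (-0.34), was not called by spike-in spots (-0.38), and was called higher with quantile normalization (0.36) and in the authors' values (0.39).

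All 4 genes of polymerase alpha-primase, the enzyme that starts every new strand, fell. Pola2, its regulatory subunit, read -1.46, -1.16 and -1.39 on the RA arrays, against -0.031, -0.076 and 0.024 on the DMSO arrays (log2 difference -1.31, SE 0.093, adjusted p = 3.22e-05, 2.47-fold lower). Prim1, the catalytic primase subunit, fell by 2.23-fold, Pola1, the polymerase itself, by 1.95-fold and Prim2, the large primase subunit, by 1.79-fold. Among the roles with 3 or more genes, this one and the origin recognition complex had the lowest medians, -1.06 and -1.14. That order was not tested.

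The 4 genes of polymerases delta and epsilon fell too. Pole2, the accessory subunit of the leading-strand polymerase epsilon, read 1.22, 1.41 and 0.72 on the RA arrays, against 2.34, 2.30 and 2.41 on the DMSO arrays (log2 difference -1.23, SE 0.18, adjusted p = 0.000774, 2.35-fold lower). The RA arrays were uneven, with replicate 3 lowest, yet all lay below the DMSO arrays. Pold2, the accessory subunit of the lagging-strand polymerase delta, fell by 2.03-fold and Pold1, its catalytic subunit, by 1.78-fold. Pole, the catalytic subunit of epsilon, fell by 1.33-fold, less than its partner Pole2.

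Both enzymes that finish Okazaki fragments fell. Lig1, the ligase that seals them, read 5.07, 5.27 and 5.31 on the RA arrays, against 6.05, 6.03 and 6.07 on the DMSO arrays (log2 difference -0.83, SE 0.080, adjusted p = 0.000126). Fen1, which trims the flaps before sealing, fell by 1.29-fold (log2 difference -0.37, SE 0.11, adjusted p = 0.0238). The Fen1 call was lost, with adjusted p above 0.05, when RA replicate 1 or any 1 of the DMSO replicates was left out.

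The 4 genes of deoxynucleotide synthesis went different ways. Tk1, which salvages thymidine, read 3.41, 3.32 and 3.32 on the RA arrays, against 4.53, 4.51 and 4.46 on the DMSO arrays (log2 difference -1.15, SE 0.060, adjusted p = 8.62e-06, 2.21-fold lower). Rrm2, the S-phase subunit of ribonucleotide reductase, read 5.89, 6.01 and 5.84 on the RA arrays, against 6.34, 6.38 and 6.36 on the DMSO arrays (log2 difference -0.45, SE 0.067, adjusted p = 0.00098). Every RA array lay below every DMSO array for these genes. Rrm1, the large subunit of the same enzyme, was not called (log2 difference -0.11, SE 0.063, adjusted p = 0.152), and its arrays overlapped. Rrm1 was called lower (-0.45) with scaling by the array median and higher with quantile normalization (0.24) and in the authors' values (0.23). Tyms, which makes thymidylate, was the only member that rose. It read 0.069, 0.043 and -0.14 on the RA arrays, against -0.42, -0.20 and -0.36 on the DMSO arrays (log2 difference 0.32, SE 0.093, adjusted p = 0.0188, 1.25-fold higher). Its groups did not overlap, but the call was lost when RA replicate 1 or 2 or DMSO replicate 1 or 3 was left out. The direction turned when arrays were scaled by their median or by spike-in spots. The rise of Tyms rests on 1 probe, the only Tyms probe of this design. Neither of the 2 Tyms probes of the VC design was on it.

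**Figure D2:**
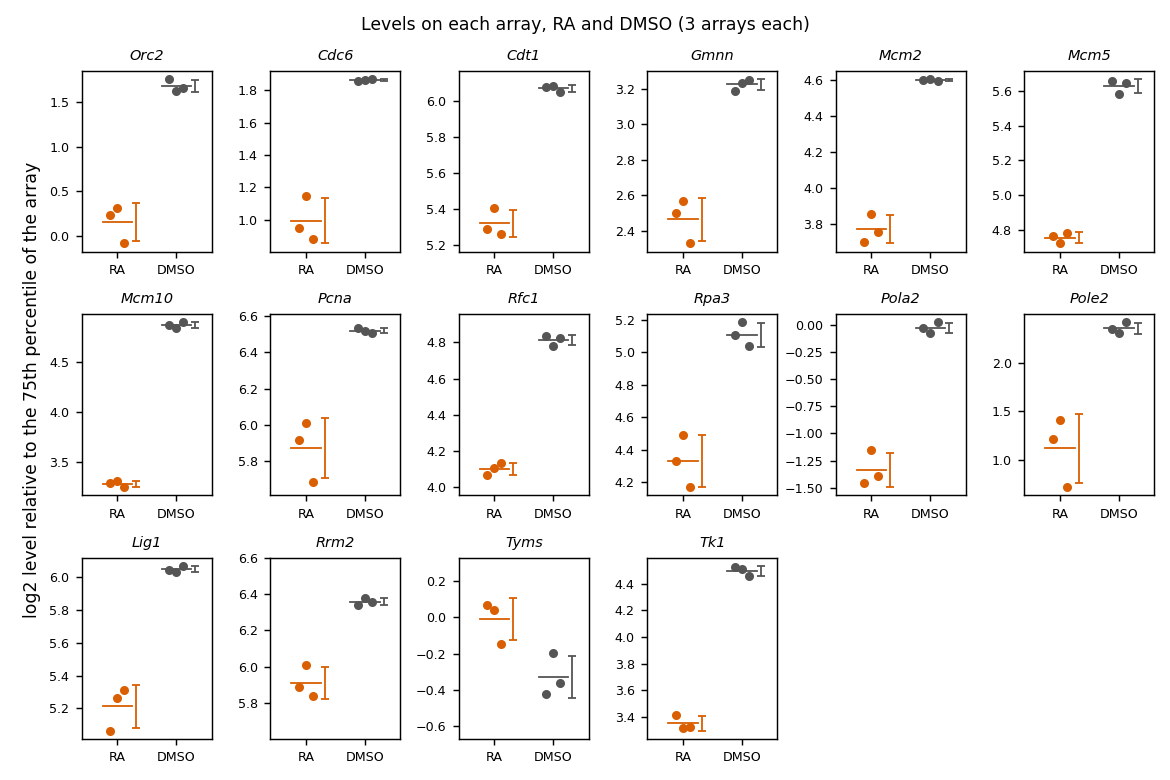
Level of 16 members on each of the 3 RA (left, orange) and 3 DMSO (right, grey) arrays, as log2 relative to the 75th percentile of the array, with group means (lines) and SD (bars). Panels have their own axes of at least 1 log2 unit, and the RA points lie below the DMSO points in every panel except Tyms, where they lie above.

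The size of the fall moved with the scaling of the arrays, and the part of the lower raw brightness of the RA arrays in it was not tested. Scaled by the array median, the median member difference was -1.11, and by spike-in spots -1.16, where the median of all genes was -0.42 and -0.46. With quantile normalization it was -0.45 and with the authors' series values -0.48, where the median of all genes was -0.034 and -0.037. Relative to the median of all genes the members were lower by 0.69 on the log2 scale with percentile, median or spike-in scaling. Each of these subtracts a single amount per array, so this value is the same for them by construction. It was 0.41 after quantile normalization and 0.44 in the authors' values. Between 33 and 45 members fell under all of these settings. Higher calls made up 46% of all calls here, 31.1% by the array median and 28.6% by spike-in spots. Gins3, Rfc4 and Rrm1 were positive after quantile normalization and in the authors' values, and of these only Rrm1 was called higher there.

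**Figure D3:**
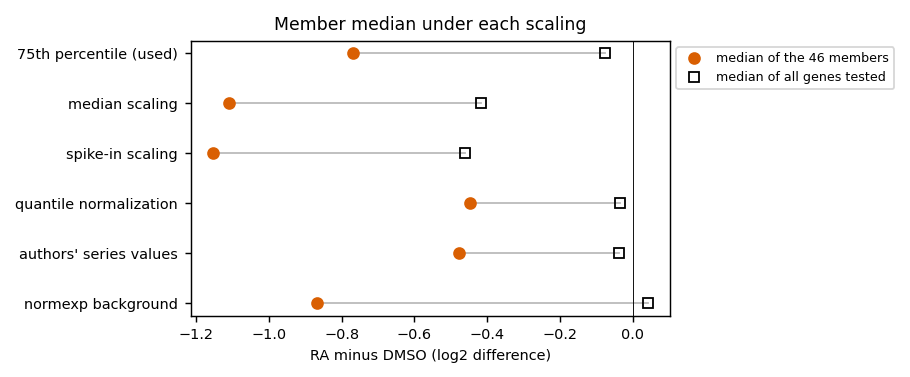
Median RA minus DMSO log2 difference of the 46 members (filled circles) and of all genes tested (open squares) under each scaling or background correction. The members' median lies left of that of all genes in each row, between -1.16 and -0.45.

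Among the 38 members with a promoter window, those with an E2F-type motif had a median difference of -0.83 (13 of 14 fell) and those without one -0.70 (19 of 24 fell). With CCAAT the median was -0.71 (19 of 23 fell) and without it -0.84 (13 of 15 fell). Orc1 and Mcm10, whose windows are printed above, fell by similar amounts, and only the Orc1 window held a full E2F-type match. The Mcm10 window ended within a possible one. No test was made of these counts.

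Most of the other genes listed for the same pathways fell in RA as well. Among 26 other origin and fork factors 20 fell and 3 rose, against 42.1% of all genes lower and 35.8% higher. Ticrr, which brings the firing machinery to origins, averaged 2.27 ± 0.099 in RA and 3.66 ± 0.016 in DMSO (SD, n = 3 each; log2 difference -1.40, SE 0.070, adjusted p = 7.14e-06). Chtf18, the large subunit of an alternative clamp loader, also fell (log2 difference -1.35, SE 0.096, adjusted p = 3.14e-05). Chtf8, a small subunit of that same loader, rose (log2 difference 0.87, SE 0.17, adjusted p = 0.00363), so 2 partners of 1 complex were called in opposite directions. Donson, a replication fork protein, rose as well (log2 difference 0.38, SE 0.079, adjusted p = 0.00475), although its other probe differed by -0.18 and its value was 0.034 with scaling by the array median and -0.011 by spike-in spots, not called in either. Chtf8 kept its sign but not its call by spike-in spots (0.48). Of 10 genes of chromatin assembly at the fork 6 fell and 4 were not called, against 42.1% of all genes lower. Among those that fell were Chaf1b, a subunit of the histone chaperone CAF-1 (log2 difference -1.08, SE 0.059, adjusted p = 1.05e-05), and Uhrf1, which guides DNA methylation at the fork (log2 difference -0.79, SE 0.086, adjusted p = 0.000223).

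All 12 genes of de novo purine synthesis fell, against 42.1% of all genes, with a median of -1.28. Prps1, which makes the ribose phosphate donor, averaged 2.97 ± 0.14 in RA and 4.84 ± 0.096 in DMSO (SD, n = 3 each; log2 difference -1.87, SE 0.095, adjusted p = 7.81e-06). Its paralog Prps2 fell too (log2 difference -1.60, SE 0.11, adjusted p = 3.09e-05). Of 19 other deoxynucleotide and pyrimidine genes 13 fell and 1 rose, against 42.1% and 35.8% of all genes. Dctd, which turns dCMP into the substrate of Tyms, showed the largest fall of these lists (log2 difference -2.33, SE 0.16, adjusted p = 3.00e-05), and Shmt1, which feeds the folate cycle that Tyms uses, came next (log2 difference -1.88, SE 0.060, adjusted p = 1.15e-06). Rrm2b, the ribonucleotide reductase subunit used outside S phase, rose (log2 difference 0.50, SE 0.12, adjusted p = 0.00717) while Rrm2 fell, but the Rrm2b call was lost under median, spike-in and quantile scaling and in the authors' values, at 0.11 to 0.17. Medians were -0.63 for fork factors, -0.43 for chromatin assembly and -0.70 for the deoxynucleotide and pyrimidine list.

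**Figure D4:**
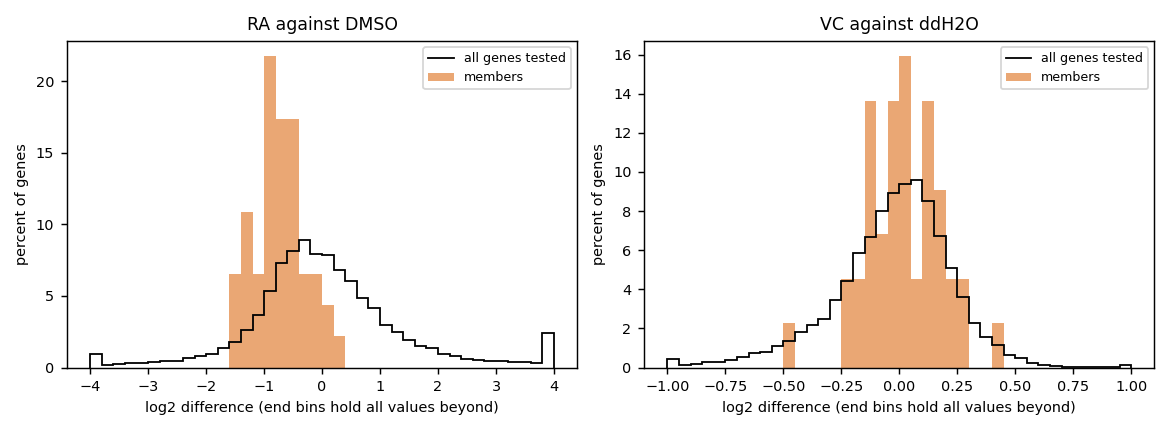
Share of genes (percent) in bins of log2 difference for the members (orange bars) and for all genes tested (black outline), in RA against DMSO (left) and VC against ddH2O (right). In RA the members gather between -1.6 and 0.4 with a median of -0.77, while in VC they lie on both sides of 0 with a median of 0.023.

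In VC against ddH2O the replication genes barely moved. Of 44 members 2 rose, none fell and 42 were not called, which is 4.55% called, against 17.1% of all genes (6.59% higher and 10.5% lower). At an unadjusted limma p under 0.05 there were 12 members, 9 higher and 3 lower, against 34.7% of all genes. Of 11 second probes of members none was called, against 8.28% of all detected probes, and 2 of the 11 had an unadjusted p under 0.05. The median member difference was 0.023, against -0.001 over all genes, and members ranged from -0.48 for Pola1 to 0.41 for Orc5. For 42 of the 44 members the 95% interval lay within 1.5-fold in either direction, and for Orc5 and Pola1 it did not. The VC arrays all lay above the ddH2O arrays for 12 members (27.3%) and below for 6 (13.6%), against 20.2% and 21.9% of all genes.

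Fen1, the flap nuclease, was 1 of the 2 that rose. It read 2.51, 2.47 and 2.62 on the VC arrays, against 2.32, 2.23 and 2.27 on the ddH2O arrays (log2 difference 0.26, SE 0.062, adjusted p = 0.036, 1.20-fold higher). Pola2, the regulatory subunit of polymerase alpha, was the other, and it read 0.078, -0.011 and 0.11 on the VC arrays, against -0.16, -0.30 and -0.23 on the ddH2O arrays (log2 difference 0.29, SE 0.063, adjusted p = 0.0295, 1.22-fold higher). In both genes all VC arrays lay above all ddH2O arrays. Within the slide that held 2 arrays of each group the Fen1 difference was 0.24 and the Pola2 difference 0.30. The arrays left were VC replicate 3 and ddH2O replicate 1, each on its own slide. Their scan days differed too, so treatment cannot be told apart from slide or scan day there. VC replicate 3 minus ddH2O replicate 1 was 0.30 for Fen1 and 0.27 for Pola2. With slide as a fixed block neither was called (adjusted p = 0.115 for Fen1 and 0.101 for Pola2), and no member was. With slide as a random block both were called (adjusted p = 0.0301 for Fen1 and 0.0247 for Pola2). Over all genes the fixed block left none called by limma, while 3890 of 14531 genes, 5 members among them, had an unadjusted p under 0.05. Both calls were lost when VC replicate 1 or 3 or any ddH2O replicate was left out, and under spike-in scaling.

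Both genes fell in RA, and the other members of their roles showed no call in VC. Fen1 was read by different probes on the designs and Pola2 by the same probe. Lig1, which seals what Fen1 trims, differed by -0.014. Prim1 and Prim2, partners of Pola2, differed by -0.15 and -0.12. Pola1, its catalytic partner, had the lowest value of all members (log2 difference -0.48, SE 0.17, adjusted p = 0.0941), with VC levels spread from 1.37 to 2.05.

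Orc5 had the highest difference and was not called. It read 0.66, 0.36 and 0.70 on the VC arrays, against 0.36, 0.17 and -0.039 on the ddH2O arrays (log2 difference 0.41, SE 0.13, adjusted p = 0.0791). One VC value barely exceeded the highest ddH2O value. Orc1 differed by 0.16, Orc2 by 0.031, Orc3 by -0.025, Orc4 by -0.15 and Orc6 by -0.16, none called. In licensing, Cdt1 read 5.39, 5.58 and 5.29 on the VC arrays, against 5.51, 5.46 and 5.50 on the ddH2O arrays (log2 difference -0.074, SE 0.081, adjusted p = 0.559). Gmnn read 5.70, 5.68 and 5.69 on the VC arrays, against 5.66, 5.75 and 5.57 on the ddH2O arrays (log2 difference 0.029, SE 0.061, adjusted p = 0.77). Cdc6 read 1.90, 1.89 and 2.02 on the VC arrays, against 1.98, 1.97 and 1.92 on the ddH2O arrays (log2 difference -0.019, SE 0.059, adjusted p = 0.845). The groups overlapped in all 3 of these.

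In the MCM helicase Mcm2 read 4.02, 4.14 and 4.11 on the VC arrays, against 3.88, 3.80 and 3.99 on the ddH2O arrays (log2 difference 0.20, SE 0.069, adjusted p = 0.0918). Mcm5 read 5.28, 5.28 and 5.23 on the VC arrays, against 5.10, 5.18 and 5.11 on the ddH2O arrays (log2 difference 0.13, SE 0.052, adjusted p = 0.128). The groups did not overlap in either, and neither passed the test. The other subunits were split in sign, with Mcm7 at 0.18 and Mcm3 at 0.12 and with Mcm4 at -0.098 and Mcm6 at -0.12. Among firing factors Gins4, a GINS subunit, read 2.57, 2.57 and 2.60 on the VC arrays, against 2.48, 2.37 and 2.44 on the ddH2O arrays (log2 difference 0.15, SE 0.054, adjusted p = 0.109). Mcm10 differed by 0.11, Dbf4 by 0.13, Gins2 by 0.095 and Gins1 by 0.021, while Gins3, Cdc45 and Cdc7 were at -0.030, -0.070 and -0.23.

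At the clamp, Pcna read 5.91, 5.95 and 5.95 on the VC arrays, against 5.92, 5.97 and 5.85 on the ddH2O arrays (log2 difference 0.024, SE 0.055, adjusted p = 0.783), with overlapping groups. Rfc5 read 5.33, 5.33 and 5.44 on the VC arrays, against 5.16, 5.21 and 5.25 on the ddH2O arrays (log2 difference 0.16, SE 0.058, adjusted p = 0.103), with all VC arrays higher. Rfc1 differed by -0.24, with VC replicate 1 well below the others, and Rfc2, Rfc3 and Rfc4 by -0.13, 0.003 and -0.12. The other Rfc2 probe differed by 0.13 and was not called. In RPA, Rpa3 read 3.18, 3.15 and 3.04 on the VC arrays, against 3.34, 3.22 and 3.22 on the ddH2O arrays (log2 difference -0.14, SE 0.065, adjusted p = 0.186), and Rpa2 differed by -0.014. All VC arrays lay below the ddH2O arrays for Rpa3 alone of these.

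Pold2, the delta accessory subunit, read 2.05, 2.13 and 2.12 on the VC arrays, against 1.81, 1.82 and 2.04 on the ddH2O arrays (log2 difference 0.21, SE 0.078, adjusted p = 0.111). It was called when ddH2O replicate 3, the array nearest to VC, was left out. Pold1, Pole and Pole2 differed by -0.042, 0.028 and 0.031. Tk1 read 3.86, 3.97 and 3.93 on the VC arrays, against 3.72, 3.70 and 3.89 on the ddH2O arrays (log2 difference 0.15, SE 0.070, adjusted p = 0.18). Tyms read 4.39, 4.46 and 4.28 on the VC arrays, against 4.33, 4.24 and 4.21 on the ddH2O arrays (log2 difference 0.12, SE 0.068, adjusted p = 0.258). The groups overlapped in both, and Rrm1, whose VC arrays all lay higher, differed by 0.080.

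**Figure D5:**
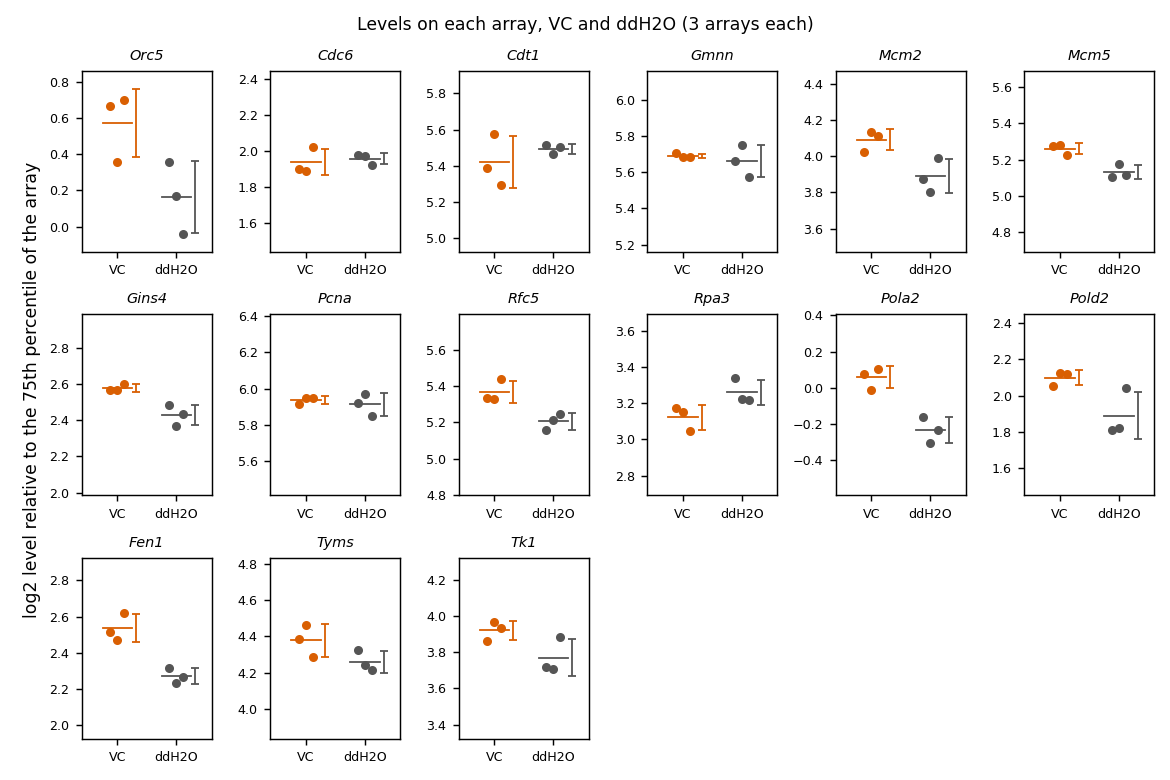
Level of 15 members on each of the 3 VC (left, orange) and 3 ddH2O (right, grey) arrays, as log2 relative to the 75th percentile of the array, with group means (lines) and SD (bars). Panels have their own axes of at least 1 log2 unit, and the groups lie close together, with Fen1 and Pola2 the 2 called genes.

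The neighbouring lists showed few calls in VC, where 17.1% of all genes were called. None of the 26 other fork factors and none of the 12 purine genes was called by limma, and 3 and 2 of them had an unadjusted p under 0.05. Asf1a, a histone chaperone, rose (log2 difference 0.31, SE 0.069, adjusted p = 0.0296), alone among the 10 chromatin genes, but its other probe differed by 0.038. Of 19 other deoxynucleotide and pyrimidine genes Shmt1 (log2 difference 0.34, SE 0.050, adjusted p = 0.0114) and Nme1, a nucleoside diphosphate kinase (log2 difference 0.26, SE 0.069, adjusted p = 0.0494), rose. The Asf1a call was lost when any 1 array was left out, the Nme1 call without any array but ddH2O replicate 3, and the Shmt1 call without VC replicate 1 or ddH2O replicate 2. None of the 3 was called with slide as a fixed block. Of 8 embryonic stem cell markers 4 rose in VC, with sums of 590.9 to 640.8 times the array's 75th percentile in VC, against 554.3 to 634.5 times in ddH2O. These sums are mostly Dppa5a (8.90 in VC, 8.93 in ddH2O), which was not called. Of 9 fibroblast markers tested 1 rose and 3 fell, with sums of 14.2 to 14.4 times in VC, against 12.4 to 13.6 times in ddH2O, and Lum and Fap stayed near background on all 6 arrays. The fibroblast sums are mostly Acta2 (3.48 in VC, 3.18 in ddH2O), the marker that rose. Of 5 blood and endothelial markers tested 1 fell, with sums of 1.26 to 1.32 times in VC, against 1.53 to 1.67 times in ddH2O, while Cdh5 and Ptprc stayed near background on all 6 arrays. Their part in these differences was not tested.

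The comparisons share no samples. Of the 44 members tested in both, 23 were positive in VC and negative in RA, 19 negative in both, 1 positive in both and 1 negative in VC and positive in RA. Across these members the VC and RA differences had a Pearson correlation of -0.23 and a Spearman correlation of -0.26, given as a description over points that share arrays. Tyms was the member positive in both and Rfc2 the one negative in VC and positive in RA. Each was read by different probes on the designs. The Rfc2 probe used in RA differed by 0.13 in VC and was not called, so the Rfc2 contrast in sign rests on the choice of probe. For 26 members the same probe stood for the gene on both designs.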

How the data were processed

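Of 12 samples, total RNA of 3 each from RA, DMSO, VC and ddH2O cells was measured. The scanner files the authors deposited give each spot's intensity, processed (per the file headers) with Agilent Feature Extraction 10.7.3.1, or 10.7 per the submitters' processing notes. The log2 values in the authors' deposited series tables, of unstated normalization, served as an alternative.

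For each array, log2 of the processed intensity minus the 75th percentile of non-control spots was taken. Outlier spots were dropped and repeated spots averaged by probe. No spot was saturated, and 61.6% to 70.4% of spots on an array were well above background. Probe accessions without versions were matched to symbols in a RefSeq gene table (GRCm38.p6, names only): 27479 of 41174 probes of the VC design and 27235 of 55681 of the RA design. The brightest probe stood for a gene, which was tested if well above background on at least 3 of 6 arrays, giving 14531 genes in VC and 16014 in RA. Members had 55 probes on the VC and 52 on the RA design.

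The designs were fitted apart with limma 3.58.1 (lmFit, eBayes) in R 4.3.3, with Benjamini-Hochberg adjustment over all genes and calls at 0.05. A probe-level fit over all detected probes gave the second probes (8.28% called in VC, 71.6% in RA). The fit was tested on simulated data. Replicate numbers were not used to pair samples: deviations of same-numbered samples from their group means correlated between -0.12 and 0.06.

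Members, roles, lists and rules were chosen with earlier results of these data known. All members were named. Values on every array were given for 8 set genes and for the called member of each role with the largest difference (the smallest adjusted p where none was called). From each other list up to 2 called genes in each direction were named. The result of 1 gene of these lists is not reported here. The alternatives were scalings, background corrections, filters, probe rules, a variance trend, a stricter threshold, blocks and samples left out. The planned normexp correction used the median signal and its local background. Promoter sequences are RefSeq's.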

Additional observations from a re-analysis of the deposited data

How the results depend on the processing

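The fall of the members in RA kept its direction in the median under every alternative run, and 33 to 45 members were called lower. The median moved to -1.11 with median scaling, -1.16 (spike-in), -0.45 (quantile), -0.48 (authors' values), -0.87 with normexp with or without spots of high local background, and -0.73 with the mean of detected probes or with the probe found on both designs, an alternative chosen after seeing the data. It ranged from -0.80 to -0.72 with 1 sample left out. Members called higher in RA were 0 with median scaling, spike-in scaling or a threshold of 0.01, 4 with quantile normalization or the authors' values, and 0 to 1 with 1 sample left out. Median and spike-in scaling shift all RA differences by 1 amount each. RA values called under either setting that turned were Rfc2 (-0.33), Rpa1 (-0.34), Tyms (-0.024) and Rb1 (-0.031) with median scaling, Tyms (-0.069), Rb1 (-0.076) and Donson (-0.011) with spike-in scaling, Gins3 (0.037), Rfc4 (0.11) and Rrm1 (0.24) with quantile normalization, the same genes with the authors' values (0.024, 0.096 and 0.23) and Cdc6 (0.071) with the probe on both designs. Rfc2 (-0.38) and Rpa1 (-0.38) were also negative with spike-in scaling, not called. Called genes of the other lists that were higher in RA numbered 7, and 3 with median scaling, 0 with spike-in scaling and 11 with quantile normalization or the authors' values. Of the 6 second probes of members 1 was called in RA, 4 with median scaling, 3 with quantile normalization, the authors' values or either normexp, 0 with spike-in scaling, no filter, the 0.01 threshold or the replicate block, and 0 to 4 with 1 sample left out.

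In VC the members called higher numbered 0 with spike-in scaling, either normexp, no filter, the 0.01 threshold, the replicate block or slide as a fixed block, 4 with a variance trend, which also called 1 lower, and 0 to 2 with 1 sample left out. The median was 0.073 with median scaling, -0.026 with quantile normalization and -0.25 with normexp, under which Fen1 (-0.001), Asf1a (-0.070), Fzr1 (-0.040) and Nme1 (-0.053) turned and no gene of the series was called. With normexp without spots of high local background the median was 0.027. The 5 higher and 3 lower calls of the other lists became 9 and 1 with median scaling, 0 and 0 under spike-in scaling, normexp, the 0.01 threshold or the slide block, 1 and 0 without the dim filter or with normexp without high-background spots, 3 and 0 with the mean of probes, and 1 and 1 with the replicate block. Rb1 turned to 0.004 in VC with the mean of probes. Higher calls there were 2 with quantile normalization or the authors' values, 3 with the probe on both designs and 11 with a variance trend. With 1 sample left out they were 0 to 3 higher and 0 to 2 lower. Higher calls made up 38.5% of all VC calls, 56.7% with scaling by the median and 11.6% with spike-in scaling. The numbers on the labels did not pair the samples; with the replicate block 0 members were higher in VC, and 38 were lower and 1 higher in RA. The causes of these shifts were not tested. All members with a probe were well above background, but the part of dim probes in the precision of their differences was not tested.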

Other observations

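E2F factors and pocket proteins control entry into S phase. Of 13 of their genes 8 fell and 3 rose in RA, against 42.1% of all genes lower and 35.8% higher, with a median log2 difference of -0.42. E2f2 averaged 1.14 ± 0.11 in RA and 2.48 ± 0.071 in DMSO (SD, n = 3 each; log2 difference -1.34, SE 0.081, adjusted p = 1.57e-05). Rbl2, which encodes a pocket protein, fell too (log2 difference -1.30, SE 0.22, adjusted p = 0.00171), on a dim probe. E2f6 (log2 difference 0.86, SE 0.074, adjusted p = 7.57e-05) and E2f7 (log2 difference 0.65, SE 0.091, adjusted p = 0.000731) rose, as did Rb1 (log2 difference 0.31, SE 0.055, adjusted p = 0.00214). The Rb1 value turned to -0.031 with median scaling and to -0.076 by spike-in spots, where E2f6 (0.48) and E2f7 (0.26) were not called either. E2f8 (-1.06), E2f1 (-0.86) and E2f4 (-0.42) were among those that fell, and E2f3 (0.055) and E2f5 (0.24) were not called.

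Of 17 S-phase control and checkpoint genes tested 14 fell in RA, against 42.1% of all genes. Fbxo5, which encodes an inhibitor of the anaphase-promoting complex, averaged 3.35 ± 0.007 in RA and 4.79 ± 0.003 in DMSO (log2 difference -1.44, SE 0.052, adjusted p = 1.84e-06). Cdk2, the S-phase kinase, also fell (log2 difference -0.97, SE 0.14, adjusted p = 0.000963). Skp2 had no matched probe on the designs.

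In VC, 1 of the 13 E2F and pocket genes was called: Rb1 was lower (log2 difference -0.28, SE 0.074, adjusted p = 0.0472), but its other probe differed by 0.29. Of 17 S-phase genes Fzr1, an activator of the anaphase-promoting complex, rose (log2 difference 0.30, SE 0.074, adjusted p = 0.0428), Rad9a, part of the checkpoint clamp, rose (log2 difference 0.24, SE 0.062, adjusted p = 0.0465) and Atr, the checkpoint kinase, fell (log2 difference -0.35, SE 0.073, adjusted p = 0.0267). The Rad9a call was lost when any 1 array was left out, the Rb1 and Fzr1 calls without any array but ddH2O replicate 3, and the Atr call without VC replicate 1 or 3 or ddH2O replicate 1 or 2. None of these calls was kept with slide as a fixed block, which left no gene of the series called and 3890 of 14531 at an unadjusted limma p under 0.05.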
